A study of Mus musculus with 20 samples.

Results

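The cytosolic ribosomal protein genes encode the proteins of the ribosome that works in the cytoplasm. They were taken by symbol: every row named Rpl or Rps followed by a number, with at most a short suffix such as a, x, y or l, together with Rplp0, Rplp1, Rplp2 and Rpsa. Rows marked as pseudogenes by their symbol and the Rps6k kinases were left out. This gave 88 of the 51789 genes listed, 36 of the small (40S) subunit with Rpsa among them and 52 of the large (60S) subunit. GENCODE annotates 83 of them as protein-coding and 5 (Rpl6l, Rps3a2, Rps3a3, Rps12l1 and Rps4l) as pseudogenes, although their symbols do not say so. Some genes with other names, such as Fau, Rack1 and Rpl36al, also encode ribosomal proteins but fall outside the rule.

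Total RNA was sequenced from the intervertebral disc of BL6 mice that were 24 months old when killed. The soft centre of the disc, its nucleus pulposus (NP), and the layered ring that holds it, the annulus fibrosus (AF), were dissected separately. From 18 months of age the mice had received weekly intraperitoneal injections for 6 months, either of the solvent DMSO (vehicle) or of MDL-800 dissolved in DMSO, and the series title names MDL-800 as an activator of the deacetylase SIRT6. Each of the 4 groups has 5 libraries: NP vehicle (numbered 1, 2, 3, 5 and 6), NP MDL-800 (15, 18, 19, 20 and 22), AF vehicle (8, 9, 10, 12 and 13) and AF MDL-800 (25, 27, 28, 29 and 30). Every mouse received DMSO, all were aged, and no genetic change is given. There is no untreated and no young group, and the labels give neither sex nor how many animals went into a library. They do not say that the libraries of a group came from separate animals, so the p-values measure only the spread between these libraries. The titles speak of cells, whereas the protocol describes dissected tissue, and in such bulk samples fewer cells of a type and less RNA per cell cannot be told apart.

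Ribosomal proteins are needed in equal numbers, since each ribosome holds about one of each. The stalk is the exception: on the large subunit, Rplp0 carries pairs of Rplp1 and Rplp2, and this flexible arm recruits the elongation factors. The mRNAs of these proteins are among the most abundant in a cell and begin with a C followed by a run of pyrimidines, the 5′ terminal oligopyrimidine (TOP) motif. Through this motif the growth-regulating kinase complex mTORC1, acting through the RNA-binding protein LARP1, sets how strongly they are translated. Several ribosomal proteins have further roles or a tissue-restricted paralog, and the family has many processed pseudogenes whose sequence is close to that of the parent mRNA.

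The start sites of 7 members are printed here, 6 with and 1 without the run of C and T that marks this class of mRNA. They were chosen because they are the stalk gene that differed most clearly with treatment, a gene whose reads lie mostly in copies, a gene of the mTORC1 pathway, a gene higher in the NP, the most abundant member, a member whose run begins after the listed start, and a paralog lower in the NP. Each line gives 60 bases, 45 before and 15 after the RefSeq start, on the gene's own strand and build GRCm38.p6, 5′ to 3′, with the longest run of C and T that overlaps the start region in capitals.
Rplp2 (chr7:141447606-141447665, plus strand): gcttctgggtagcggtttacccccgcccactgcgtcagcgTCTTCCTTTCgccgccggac
Rpl28 (chr7:4792920-4792979, plus strand): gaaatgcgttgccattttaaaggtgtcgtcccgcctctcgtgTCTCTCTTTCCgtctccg
Rps6 (chr4:86857353-86857412, minus strand): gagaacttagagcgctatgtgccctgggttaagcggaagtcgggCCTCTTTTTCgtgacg
Rpl38 (chr11:114668535-114668594, plus strand): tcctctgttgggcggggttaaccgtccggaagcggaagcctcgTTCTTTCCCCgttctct
Rps27 (chr3:90213634-90213693, minus strand): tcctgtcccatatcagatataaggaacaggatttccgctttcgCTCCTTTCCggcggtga
Rps12 (chr10:23787195-23787254, minus strand): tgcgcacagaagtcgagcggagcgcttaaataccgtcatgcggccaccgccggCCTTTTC
Rpl7l1 (chr17:46782642-46782701, minus strand): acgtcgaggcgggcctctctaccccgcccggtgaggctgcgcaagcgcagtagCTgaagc
The runs of Rplp2, Rpl28, Rps6, Rpl38 and Rps27 are 9 to 11 bases long and lie across or beside the start. The run of Rps12 is 11 bases long, and the window ends within it. The longest run of Rpl7l1, whose product is a paralog of Rpl7, is 2 bases.

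RefSeq promoter entries were matched by symbol for 63 of the 88 members, and 25 had none, Rplp1, Rpl29, Rpl36 and Rps29 among them. A run of C and T of at least 5 bases overlapped the region from 5 bases before to 10 after a start in 65.1% of the 63. The share was 42.0% of all 27025 genes with a promoter entry, a set not limited to genes listed or tested here. A run of at least 8 bases was found in 41.3% of the members and 13.0% of all genes, and the median longest run was 7 bases against 4. A further 4 motifs were searched on both strands of the whole entry. The letters CCGGAAG, the core bound by ETS-family factors, were in 41.3% of member promoters and 9.93% of all. AAGATGGCG, the core of the YY1 motif, was in 6.35% and 1.64%. The E-box CACGTG was in 9.52% and 8.09%, and TATAAA in 11.1% and 15.7%. These are matches of letters only.

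The values are FPKM, fragments counted per length of transcript and per depth of library, as the authors deposited them, after scaling each library by a factor between 0.933 and 1.06. Depth, estimated from the smallest steps between values, was 12300000 to 22500000 reads a library. Pairs of libraries of one group correlated at 0.896 to 0.978, and no 2 libraries were identical. The 4 groups matched their tissue labels: 9 of 9 tested NP markers were called higher in the NP with vehicle and 8 of 9 with MDL-800, while 7 and 6 of 8 AF markers were called lower. The summed level of the NP markers was 25620 to 32860 in NP libraries and 2493 to 15090 in AF libraries. Markers of 9 neighbouring tissues and cell types (skeletal muscle, bone, fat, nerve, endothelium, macrophages, neutrophils, B and plasma cells, and red cells) were all called lower in the NP than in the AF under both treatments. No marker of any list was at 0 in every library of a group, and none was called between MDL-800 and vehicle.

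Libraries also differed in how their levels went with the GC content of the genes. For each library a slope was fitted over all tested genes, the change in log2 level relative to the mean of all 20 libraries for each 10 percentage points of GC. The slope was below -0.1 in 4 libraries, -0.285 and -0.278 in NP vehicle 1 and 2, -0.238 in AF vehicle 12 and -0.106 in AF MDL-800 27. In the other NP vehicle libraries it was -0.0256, -0.0495 and -0.00672. In the 5 NP MDL-800 libraries it was 0.0228 to 0.0885, so the slopes of the NP groups did not overlap. In the remaining AF libraries it was 0.0302 to 0.144. Values without these 4 libraries, and for the NP also with the GC trend removed from every library, are therefore given beside the main counts and beside most members whose differences stood out.

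Of the 88 members 83 reached 1 FPKM in at least 5 libraries and were tested, 34 of the 40S and 49 of the 60S subunit. Rpl10l, a paralog of the X-linked Rpl10, is listed at 0 in all 20 libraries. Rpl39l, a paralog of Rpl39, reached 1.42 at most, and the annotated pseudogenes Rpl6l, Rps3a2 and Rps3a3 did not pass either. The members took 5.68% to 9.36% of the summed FPKM of a library, with group means of 8.10% ± 0.615 in NP vehicle, 8.45% ± 0.871 in NP MDL-800, 7.29% ± 1.07 in AF vehicle and 8.13% ± 0.961 in AF MDL-800 (SD, n = 5 each). These ranges overlap.

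Per length, the mean level over all libraries spread widely around a median of 531.2 FPKM. Rps27 of the small subunit was highest at 2115, followed by Rpl41, the smallest ribosomal protein, at 1500, and Rps24 at 1374. At the low end were Rpl3l at 6.82, Rpl27 at 8.29, Rpl12 at 9.96, Rps4l at 16.4 and Rpl7l1 at 20.4. Rpl27 and Rpl12 are core genes and not paralogs. In the annotation, 581 other loci match an mRNA of 79 members at 95% identity or more over at least 80% of the locus. These copies held 98.6% of the summed FPKM of Rpl27 with its copies, 99.0% for Rpl12, 94.1% for Rps12 and 92.6% for Rpl5. For 13 members the copies held over 50%. How the authors shared reads between such loci is not given in the sources used here, so the levels and folds of those 13 (Rpl5, Rpl10, Rpl12, Rpl21, Rpl27, Rpl27a, Rpl28, Rpl31, Rpl36a, Rpl37, Rps6, Rps12 and Rps23) are uncertain.

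In the NP, 2 of the 83 tested members were called between MDL-800 and vehicle (limma, Benjamini-Hochberg adjusted p under 0.05 over all 16383 genes tested), and both rose. They were Rplp2 of the stalk and Rpl29 of the large subunit. Across all genes 0.25% were called and 0.232% called higher. At an unadjusted p under 0.05 there were 24 members, 21 with a positive and 3 with a negative difference, where 14.1% of all genes passed and 5% of 83 is 4.15. The 83 members split nearly evenly in sign: 41 differences were positive, and the median log2 difference was -0.03, as it was for all genes. The median was 0.02 over the 49 members of the 60S subunit and -0.08 over the 34 of the 40S subunit, none of which was called.

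**Figure D1:**
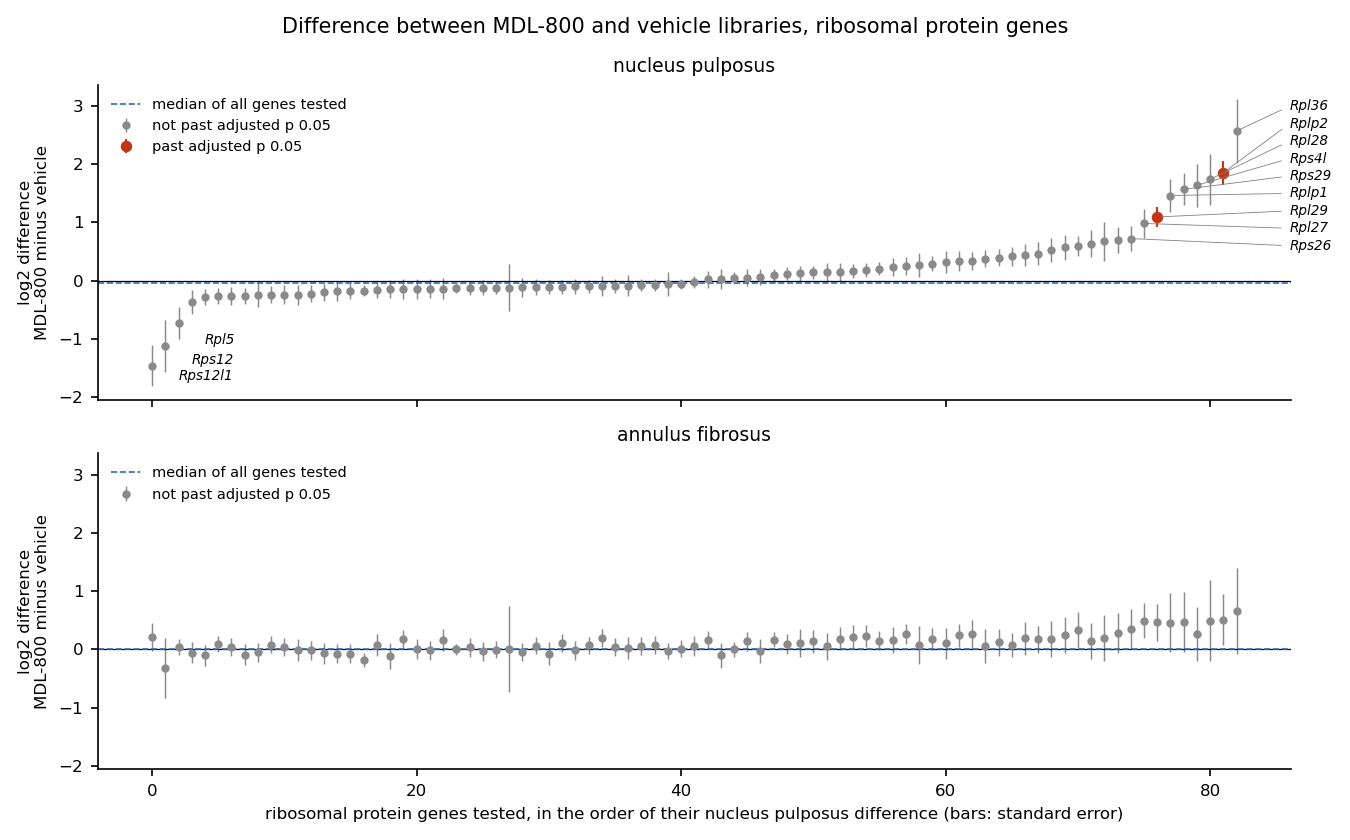
Log2 difference between MDL-800 and vehicle (vertical axis, with its standard error) for the 83 tested ribosomal protein genes, in the order of their NP difference in both panels; the NP is above, the AF below, and red points passed the test. Rplp2 (1.85) and Rpl29 (1.09) are the only members called in the NP, none is called in the AF, and the dashed line is the median of all genes tested.

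In the order of the library numbers given above, which is kept throughout, the scaled FPKM of Rplp2 with vehicle was 182, 172, 225.5, 286 and 272. With MDL-800 it was 594.5, 635, 1019, 1035 and 866. All 5 treated libraries lay above all 5 vehicle libraries, with means of 228 ± 51.5 and 830 ± 208 (SD, n = 5). The log2 difference, on the scale of log2(FPKM + 1) used for all fits, was 1.85 ± 0.203 (SE, limma adjusted p = 0.013). The exact two-sided permutation test on this gene alone gave p = 0.00794, the smallest that 252 divisions of 10 libraries can give. The difference was 1.74 (limma adjusted p = 0.00385) with the GC trend removed. Without NP vehicle 1 and 2 it was 1.63 with an adjusted p of 0.0508. Rplp2 has 1 near-identical copy, which holds 0.0457% of the summed level.

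The partner protein Rplp1 stood at 439, 453, 639, 1104 and 1136 in NP vehicle and at 1622, 1513, 2331, 2092 and 2136 in NP MDL-800. These groups did not overlap, but NP vehicle 1, 2 and 3 lay well under 5 and 6, and the log2 difference of 1.46 ± 0.291 did not pass the test (limma adjusted p = 0.0718). It was 1.04 (adjusted p = 0.185) without NP vehicle 1 and 2, and 1.23 (adjusted p = 0.0764) with the GC trend removed. Rplp0, the base of the stalk, stood at 594, 582, 817, 914 and 975 with vehicle and at 850, 722, 1228, 905 and 1118 with MDL-800. Those ranges overlap, and its difference was 0.32 ± 0.194 (adjusted p = 0.497). In all, 1 of the 3 stalk genes was called.

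Rpl29, a heparin-binding protein of the large subunit that also occurs at the cell surface, stood at 186, 171, 139, 249 and 247 in NP vehicle. With MDL-800 it stood at 345, 365, 490, 434 and 456, so the groups did not overlap. The log2 difference was 1.09 ± 0.17 (limma adjusted p = 0.0411). The call was lost with the GC trend removed (0.72, adjusted p = 0.12) and without NP vehicle 1 and 2 (1.02, adjusted p = 0.149). It held in 2 of the 10 fits that left out 1 library, and in 8 of 10 for Rplp2. The mRNA of Rpl29 has a GC content of 60.5%, and its 31 copies hold 0.929% of the summed level.

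Of the small subunit, Rps29, a small zinc-binding protein, stood at 499, 457, 636, 1202 and 1126 in NP vehicle and at 1916, 1894, 2306, 2311 and 2355 in NP MDL-800. The groups did not overlap, and the log2 difference of 1.57 ± 0.274 had an adjusted p of 0.0519. With the GC trend removed it was 1.58 (limma adjusted p = 0.0499), and summed with its copies 1.83 (adjusted p = 0.0396). Without NP vehicle 1 and 2 it was 1.17 (adjusted p = 0.114).

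**Figure D2:**
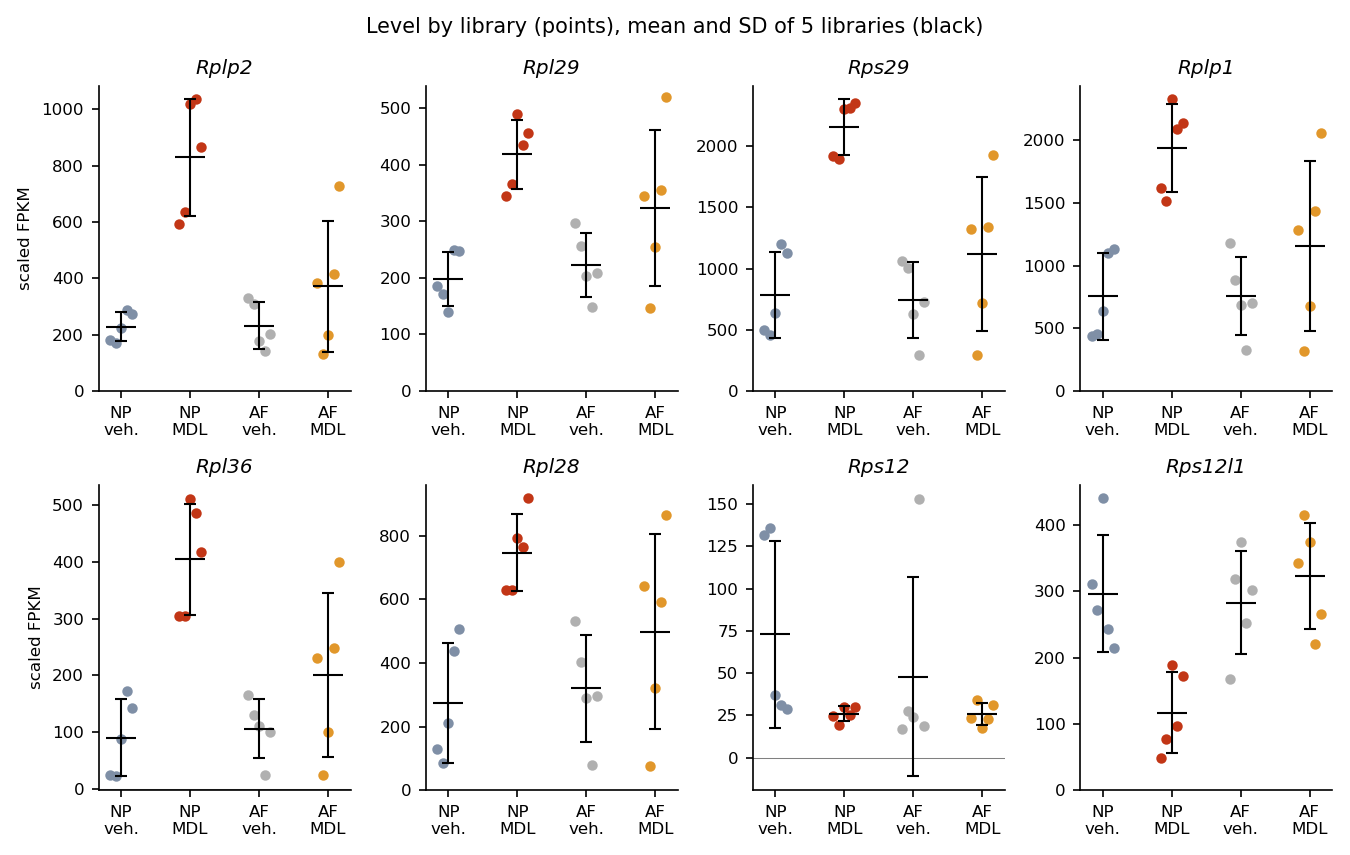
Scaled FPKM (vertical axis, linear from 0) of 8 ribosomal protein genes in each of the 20 libraries; points are libraries in the order of their numbers, and the black lines give the mean and SD of each group of 5. The 5 NP MDL-800 points of Rplp2 lie between 594.5 and 1035, above all NP vehicle points, and the highest points of Rps12 are NP vehicle 1 and 2 and AF vehicle 12.

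Altogether 9 members had NP groups that did not overlap, where the share of all genes was 4.5%. In 8 of them every MDL-800 library was higher, against 3.5% of all genes: Rplp1, Rplp2, Rpl27, Rpl28, Rpl29, Rpl36, Rps29 and Rps4l. Rpl36 and Rpl28 of the large subunit and Rpl27 are named here after their values were seen. Rpl36 stood at 23.7, 23.1, 87.9, 172 and 143 with vehicle and at 304, 305, 512, 486 and 418 with MDL-800, a log2 difference of 2.57 ± 0.553 (limma adjusted p = 0.0743). Without NP vehicle 1 and 2, its lowest libraries, the difference was 1.61 ± 0.258 (adjusted p = 0.0919), and 2.18 (adjusted p = 0.0879) with the GC trend removed. In the AF the same gene was lowest, at 24.8, in both vehicle 12 and MDL-800 27, 2 of the 4 libraries with a low GC slope. Rpl28 stood at 129, 85.1, 211, 439 and 507 with vehicle and at 629, 630, 793, 766 and 918 with MDL-800 (1.74 ± 0.442, adjusted p = 0.107). It differed by 1.03 (adjusted p = 0.244) without NP vehicle 1 and 2, and by 1.71 (adjusted p = 0.141) with the GC trend removed. Its copies hold 64.4% of the summed level, and with them the difference was 0.54 (adjusted p = 0.194). Rpl27 had a difference of 0.98 ± 0.252 (adjusted p = 0.11) at levels of 2.00 to 12.6, and of 0.57 (adjusted p = 0.131) without NP vehicle 1 and 2.

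The GC content of the 8 members was 51.0% to 60.8% with a median of 56.4%, against a median of 50.6% for the 74 members whose groups overlapped and 49.3% over all genes tested. Across the 83 members, Spearman's rho between the NP log2 difference and GC content was 0.47, and across 16348 genes it was 0.46, a description over genes that share the same 10 libraries. With NP vehicle 1 and 2 left out, 60 of 83 differences were positive and the median was 0.07, against -0.02 over all genes. In that fit 13 members had an unadjusted p under 0.05 and 1 (Rps4l) was called. Of all 16383 genes, 1728 had an unadjusted p under 0.05 by limma and 11 were called. With the GC trend removed, 2 members were called (Rplp2 and Rps29), against 35 of all genes. Beyond these fits, the part of the GC slope in the differences was not tested.

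**Figure D3:**
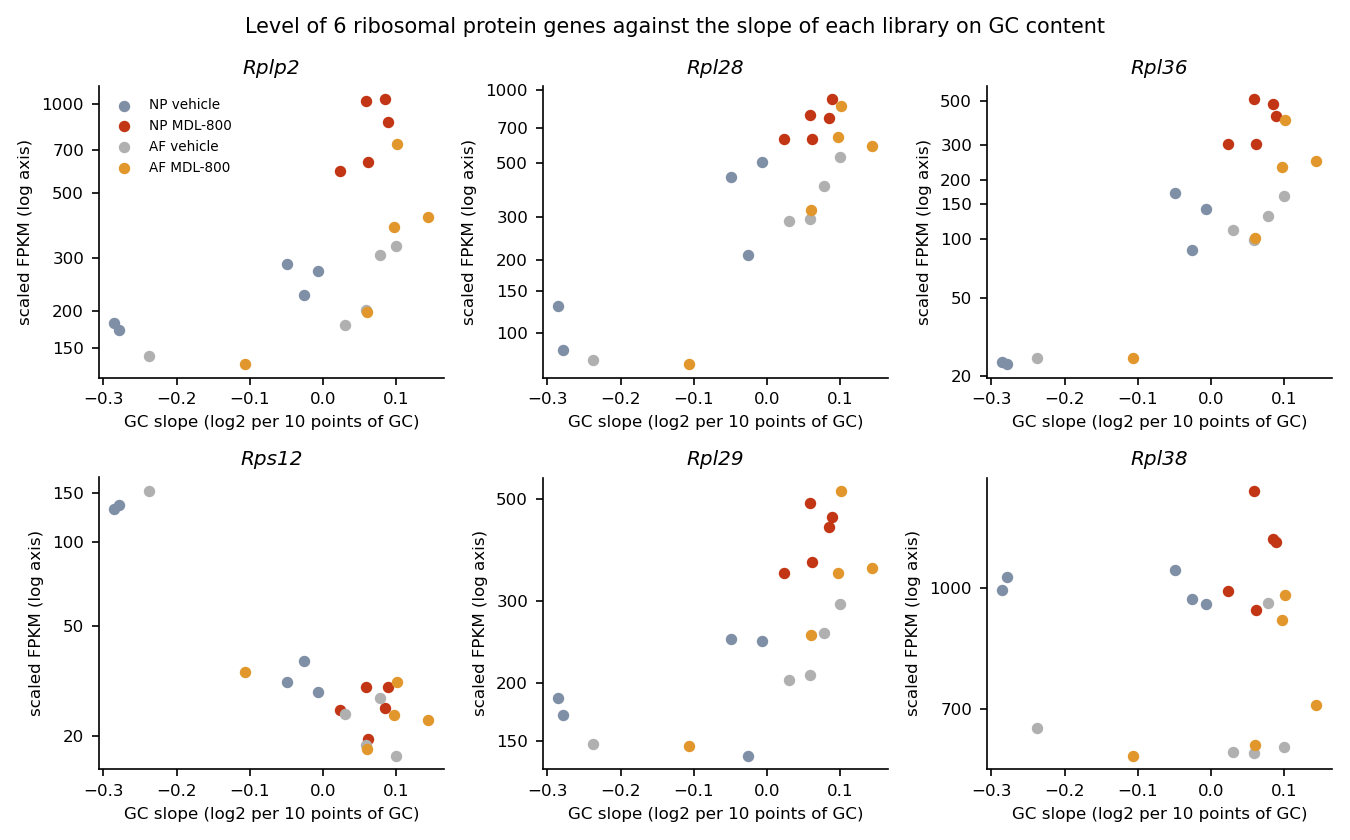
Scaled FPKM of 6 ribosomal protein genes (vertical log axes) against the GC slope of each library (horizontal axes, log2 level per 10 percentage points of GC content, relative to the mean of 20 libraries); each point is a library, coloured by group. NP vehicle 1 and 2, AF vehicle 12 and AF MDL-800 27 lie below -0.1, while the 5 NP MDL-800 libraries lie between 0.0228 and 0.0885.

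Rps4l and Rps12l1, which the annotation lists as pseudogenes, differed in opposite directions in the NP. Rps4l, whose symbol refers to the X-linked Rps4x, stood at 4.78, 5.10, 15.5, 19.1 and 18.9 with vehicle and at 32.6, 31.6, 42.1, 34.5 and 39.7 with MDL-800. The groups did not overlap, and the difference of 1.64 ± 0.366 had a limma adjusted p of 0.0787. Without NP vehicle 1 and 2 it was smaller but less spread, 0.98 ± 0.116, with an adjusted p of 0.0376. Rps4l was not called with the GC trend removed. Rps4x itself stood between 904 and 1278 with vehicle and 808 and 1112 with MDL-800 (-0.18, adjusted p = 0.624).

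Rps12l1, named after its values were seen, was the only member with every MDL-800 library below every vehicle library in the NP. It stood at 311, 271, 441, 244 and 214 with vehicle and at 48.9, 76.9, 189, 97.3 and 172 with MDL-800 (-1.46 ± 0.353, limma adjusted p = 0.0958). Its annotated transcript is identical to the mRNA of Rps12 over its whole length, so its level and folds are as uncertain as those of Rps12. Rps12 stood at 132 and 136 in NP vehicle 1 and 2, at 28.8 to 37.2 in the other vehicle libraries and at 19.5 to 30.1 with MDL-800. Its highest value in any library was 153, in AF vehicle 12, which also had a low GC slope. The difference of -1.13 ± 0.445 in the NP (adjusted p = 0.283) was 0.08 (adjusted p = 0.843) after its copies, Rps12l1 among them, were added. Without NP vehicle 1 and 2 the difference of Rps12 was -0.32 (adjusted p = 0.505), and that of Rps12l1 -1.45 (adjusted p = 0.313).

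Of the members named for a role outside the ribosome, Rpl29 was called in the NP and Rpl5, Rpl11, Rps6, Rpsa, Rpl13a and Rpl38 were not. Rpl5 and Rpl11, which together with 5S RNA can bind the p53 regulator Mdm2, had differences of -0.73 ± 0.279 (limma adjusted p = 0.263) and 0.68 ± 0.336 (adjusted p = 0.404). The values of Rpl5 were 111, 113, 153, 49.6 and 56.2 with vehicle and 47.5 to 59.2 with MDL-800, so 3 vehicle libraries were high and 2 lay within the MDL-800 range. Summed with its copies, Rpl5 stood at 1294, 1207, 892, 800 and 857.5 with vehicle and at 659 to 980 with MDL-800. The values of Rpl11 were 213, 152, 535, 540 and 444 with vehicle and 470 to 576 with MDL-800, with NP vehicle 1 and 2 lowest. Summed with its copies, Rpl11 stood at 584, 598, 672, 546 and 450 with vehicle and at 478 to 585 with MDL-800. NP vehicle 1 and 2 were then not low, so the level and fold of Rpl11 are also uncertain. Without these 2 libraries Rpl11 differed by 0.08 ± 0.11 (adjusted p = 0.841) and Rpl5 by -0.51 ± 0.323 (adjusted p = 0.635). Rps6, the substrate of S6 kinase, differed by 0.34 ± 0.15 (adjusted p = 0.342), and 70.1% of its summed level lay in copies. With these copies Rps6 stood at 1377, 1371, 1193, 1057 and 1226 with vehicle and at 887.5, 906, 1273, 1077 and 1313 with MDL-800. The groups overlapped, and the positive difference was not kept. Rps19, which is mutated in Diamond-Blackfan anaemia, differed by -0.12 (adjusted p = 0.81). Rpsa, also a laminin receptor, differed by 0.33 (adjusted p = 0.423). Rpl13a, a subunit of a translation inhibitor in myeloid cells and a common reference gene, differed by 0.15 ± 0.149 (adjusted p = 0.716), and Rpl38, needed for the translation of some Hox mRNAs, by 0.14 ± 0.112 (adjusted p = 0.62).

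Members with a paralog in the list gave no call in the NP either. Rpl3 stood at 600 to 622 in all 5 vehicle libraries and at 499 to 716 with MDL-800, with a difference of -0.03 (limma adjusted p = 0.945). Rpl22 differed by -0.12 and its paralog Rpl22l1 by -0.37, Rps27 by -0.14 and Rps27l by 0.04, and Rpl7 by -0.22 and Rpl7l1 by -0.13, and the smallest adjusted p among these was 0.4495. The 3 most abundant members differed by -0.14 (Rps27), 0.27 (Rpl41) and -0.14 (Rps24), none past the test.

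In the AF, none of the 83 members was called between MDL-800 and vehicle, none had an unadjusted p under 0.05 and none had groups that did not overlap. Across all genes 0.0% were called by limma, 270 genes had an unadjusted p under 0.05, and 0.226% did not overlap. The differences were positive for 61 of 83 members with a median of 0.08, against 0.01 over all genes. They ran from -0.32 for Rps12 to 0.65 for Rpl36. Without AF vehicle 12 and AF MDL-800 27, 70 of 83 were positive with a median of 0.10, against 0.01 over all genes. Again no member was called, and no gene was. The lean to positive differences rested on single libraries. Without AF MDL-800 30, 44 of 83 were positive with a median of 0.0085, against -0.0009 over all genes. Without AF vehicle 9, 77 were positive with a median of 0.17, against 0.007. These were the lowest and highest counts when 1 library was left out. By limma the members nearest to a call were Rpl27 (0.49 ± 0.306) and Rpl12 (0.27 ± 0.174) among positive differences, and Rpl10 (-0.18 ± 0.128) and Rps12 (-0.32 ± 0.521) among negative ones. Each had an adjusted p of 1 and overlapping groups.

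The members that stood out in the NP were spread widely in the AF. Rplp2 was at 332, 308, 179, 140.5 and 201 with vehicle, whereas the MDL-800 libraries held 384, 132, 198.5, 415 and 729.5. The groups overlap, and the difference was 0.51 with an interval from -0.46 to 1.48 (limma adjusted p = 1). Rpl29 stood at 148 to 296.5 with vehicle and 146 to 520 with MDL-800 (0.46, interval -0.24 to 1.16). Rps29 stood at 293 to 1058 and 297 to 1929 (0.47, interval -0.68 to 1.61). The lowest value of these 3 genes was in AF vehicle 12 among vehicle libraries and in AF MDL-800 27 among treated ones.

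Whether MDL-800 acted differently in the NP and the AF was tested in a fit over all 4 groups. No member passed, as no gene did (0.0% of 16383, smallest limma adjusted p 0.9997). An unadjusted p under 0.05 was found for 4 of the 83 members and 611 of the 16383 genes. Without the 4 libraries of low GC slope these counts were 2 and 380. The 4 members were picked by this p, so their intervals leave out 0 by that choice. Their effect in the NP minus that in the AF was 1.34 ± 0.505 for Rplp2 (interval 0.29 to 2.40), 1.38 ± 0.62 for Rps4l (0.08 to 2.67), -1.67 ± 0.449 for Rps12l1 (-2.60 to -0.73) and -0.78 ± 0.325 for Rpl5 (-1.46 to -0.09). The calls of Rplp2 and Rpl29 in the NP are therefore not shown to be particular to that tissue. The values of Rps12l1 and Rpl5 in this fit carry the uncertainty from near-identical loci given above.

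Between the tissues, core members such as Rpl38 and Rpl23 were called higher in the NP and Rpl3l, Rpl7l1, Rpl7a and Rps2 lower. Rpl10 was called higher too, but its difference was not kept when its copies were added, as given below. With vehicle, 10 of 83 members were called between NP and AF, where limma called 55.7% of all genes. Of these 6 were higher in the NP (21.8% of all genes were) and 4 lower (33.9%). The groups did not overlap for 1 member, Rpl7l1, against 41.0% of all genes. The median difference was 0.06, against -0.08 over all genes. The split rests on how libraries were scaled: it was 3 higher and 6 lower with FPKM as deposited, 9 and 4 after quantile normalization, 12 and 2 with upper-quartile scaling, and 7 and 2 with the GC trend removed. The median of all genes was -0.14, 0.20 and 0.08 under the first 3 of these. Under the same 4 settings 3075, 6474, 4976 and 4752 of all genes were called higher and 5899, 3925, 4655 and 4956 lower. Without NP vehicle 1 and 2 and AF vehicle 12 the split of the members was 3 and 4, and that of all genes 2981 and 4986. There the calls of Rpl22, Rpl23, Rpl37a, Rpl38, Rpl39 and Rps2 were lost (limma adjusted p of 0.0753 for Rpl38 to 0.211 for Rpl37a). Rpl10, Rpl3l, Rpl7a and Rpl7l1 were still called. With the GC trend removed Rpl7a (adjusted p = 0.169) and Rps2 (adjusted p = 0.0988) were not called. Without 1 library at a time the count ran from 4 (without AF vehicle 8) to 13, and was 5 without NP vehicle 1, without NP vehicle 2 and without AF vehicle 13. Of all genes 8291 to 9138 were called in these fits. Markers of the 9 neighbouring tissues and cell types were lower in the NP throughout, as given above, and their part in these differences was not tested.

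With MDL-800, 15 members were called between the tissues, 9 higher in the NP and 6 lower, against 62.8% of all genes (25.6% higher, 37.2% lower). The groups did not overlap for 9 members, 4 higher and 5 lower, against 49.1% of all genes. The median was 0.01, against -0.08. This comparison shares its NP libraries with the treatment comparison in the NP. The count was 25 after quantile normalization (15 higher, 10 lower), 31 with upper-quartile scaling (26 and 5), 24 with the GC trend removed (19 and 5) and 20 when each library was brought to the same sum (9 and 11). The split of all genes moved with these settings. In the same order 6919, 5611, 5260 and 3463 genes were called higher and 4288, 5043, 5332 and 6259 lower, against 4188 and 6102 here. Without AF MDL-800 27 the member count was 17 (9 and 8), where 4162 of all genes were called higher and 6121 lower. All members named below for this comparison were still called, the one nearest the threshold being Rpl22 (limma adjusted p = 0.0369). With the GC trend removed Rps3 was not (adjusted p = 0.122).

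Rpl38 was higher in the NP under both treatments. With vehicle the NP libraries held 993, 1032, 969, 1054 and 955 and the AF libraries 624, 957, 616, 661 and 614.5, so that only AF vehicle 9 reached the NP range. The log2 difference was 0.55 ± 0.152 with vehicle (limma adjusted p = 0.0102). With MDL-800 it stood at 936 to 1334 in the NP and 609 to 981 in the AF (0.55 ± 0.169, adjusted p = 0.015). Its promoter, printed above, has a run of 10 and the letters CCGGAAG.

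Rpl23, which also binds Mdm2, was higher in the NP by 0.57 ± 0.187 with vehicle (limma adjusted p = 0.0236) and by 0.43 ± 0.102 with MDL-800 (adjusted p = 0.00399). With MDL-800 its NP libraries stood at 615 to 692 and its AF libraries at 438 to 563, without overlap. Rpl22 (0.43 and 0.32) and Rpl39 (0.55 and 0.41) were called higher under both treatments, and Rpl37a (0.46) with vehicle. Rpl10, a core protein of the subunit interface, was called higher under both, at 181 to 233 in NP vehicle against 128 to 188 in AF vehicle (0.46 ± 0.134, adjusted p = 0.0128). With MDL-800 its groups did not overlap (0.48 ± 0.0897, adjusted p = 0.000867). Copies hold 82.7% of its summed level, and with them the difference turned to -0.03 (adjusted p = 0.882) with vehicle and -0.06 (adjusted p = 0.73) with MDL-800.

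**Figure D4:**
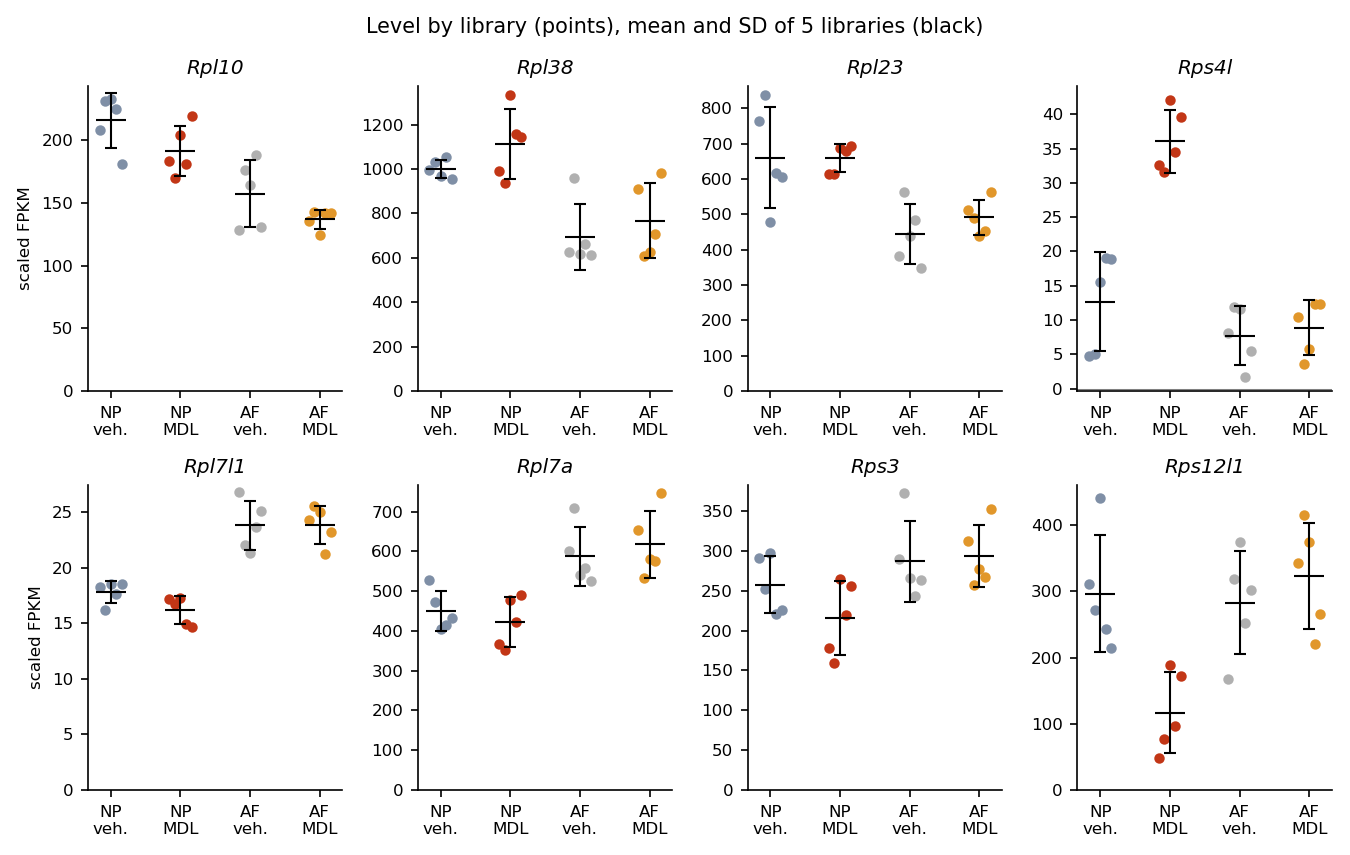
Scaled FPKM in each library (vertical axis, linear from 0) for 8 ribosomal protein genes called between NP and AF under vehicle, MDL-800 or both; points are libraries and the black lines give the mean and SD of each group of 5. Rpl7l1 lies below its AF levels in all NP libraries, and Rpl38 above all AF vehicle libraries except AF vehicle 9.

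Rpl7l1 was lower in the NP under both treatments, with no overlap in either. With vehicle the NP libraries held 18.2, 16.2, 18.6, 17.6 and 18.6 and the AF libraries 26.8, 22.1, 21.4, 23.6 and 25.1 (-0.39 ± 0.0893, limma adjusted p = 0.00326). With MDL-800 it stood at 14.7 to 17.3 in the NP and 21.2 to 25.6 in the AF (-0.53 ± 0.0827, adjusted p = 0.000229). Rpl7, far more abundant per length, stood at 566 to 810 in NP vehicle and 515 to 777 in AF vehicle (0.19, adjusted p = 0.35).

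Rpl7a was lower in the NP with vehicle (-0.38 ± 0.129, limma adjusted p = 0.0268) and with MDL-800 (-0.55 ± 0.135, adjusted p = 0.00445), where it stood at 352 to 491 in the NP and 533 to 747 in the AF without overlap. Rps2, a protein of the mRNA entry channel, was lower with vehicle (-0.53 ± 0.195, adjusted p = 0.0394). Rps3, also a DNA repair endonuclease, was called lower with MDL-800 (-0.46 ± 0.157, adjusted p = 0.0246). Its NP MDL-800 libraries held 178, 160, 264, 220 and 256 and its AF MDL-800 libraries 312, 258, 278, 268 and 353, so that the groups overlapped.

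Rps4l and Rps12l1 were called between the tissues with MDL-800. Rps4l stood at 31.6 to 42.1 in the NP and at 3.60 to 12.4 in the AF (2.02 ± 0.28, limma adjusted p = 0.00011), and Rps12l1 at 48.9 to 189 in the NP and 220 to 415 in the AF (-1.60 ± 0.35, adjusted p = 0.00228). Rps12 summed with its copies, Rps12l1 among them, stood at 564 to 842 and 654 to 1086 in the same groups, which overlap (-0.25 ± 0.172, adjusted p = 0.228). With vehicle the ranges of both overlapped, with differences of 0.64 (adjusted p = 0.313) and 0.07 (adjusted p = 0.825). Rplp2 (1.36 ± 0.408, adjusted p = 0.0133), Rps29 (1.19 ± 0.427, adjusted p = 0.0306) and Rps13 (0.71 ± 0.181, adjusted p = 0.0055), whose host gene also carries small nucleolar RNAs, were called higher in the NP with MDL-800. The groups of all 3 overlapped. Rps13 stood at 709 to 957 in the NP and 363 to 729 in the AF. Summed with its copies it stood at 710 to 960.5 and 497 to 731, so the size of its difference is uncertain. With vehicle the differences of Rplp2, Rps29 and Rps13 were 0.02, 0.09 and 0.37, none past the test.

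Rpl3l is the paralog of Rpl3 that replaces it in the ribosomes of skeletal and heart muscle. It was the member with the largest tissue difference, lower in the NP by -2.59 ± 0.568 with vehicle (limma adjusted p = 0.00268) and -2.72 ± 0.617 with MDL-800 (adjusted p = 0.00283). In the NP its values were 0, 0.619, 3.57, 0.128 and 0.395 with vehicle and 1.25, 0.389, 0, 0.116 and 1.22 with MDL-800. In the AF they were 2.47, 12.3, 6.93, 30.5 and 7.07 with vehicle and 2.37, 23.7, 5.29, 33.9 and 4.16 with MDL-800. NP vehicle 3 lay above AF vehicle 8, and the MDL-800 groups did not overlap. Rpl3 did not differ past the test (-0.03 and -0.12, adjusted p = 0.871 and 0.499).

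Skeletal muscle markers moved with Rpl3l, and all 6 were called lower in the NP under both treatments. In the NP their summed level was 5.27, 45.8, 811, 42.5 and 96.3 with vehicle and 169, 81.9, 6.20, 16.9 and 117 with MDL-800. In the AF the sums were 704, 2663, 1441, 4113 and 1177 with vehicle and 502, 2868, 933, 6013 and 723 with MDL-800. Within each AF group the 2 libraries highest in Rpl3l were also the 2 highest in muscle markers, and NP vehicle 3 was highest in both among NP vehicle libraries. The part of muscle RNA in the difference of Rpl3l was not tested.

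**Figure D5:**
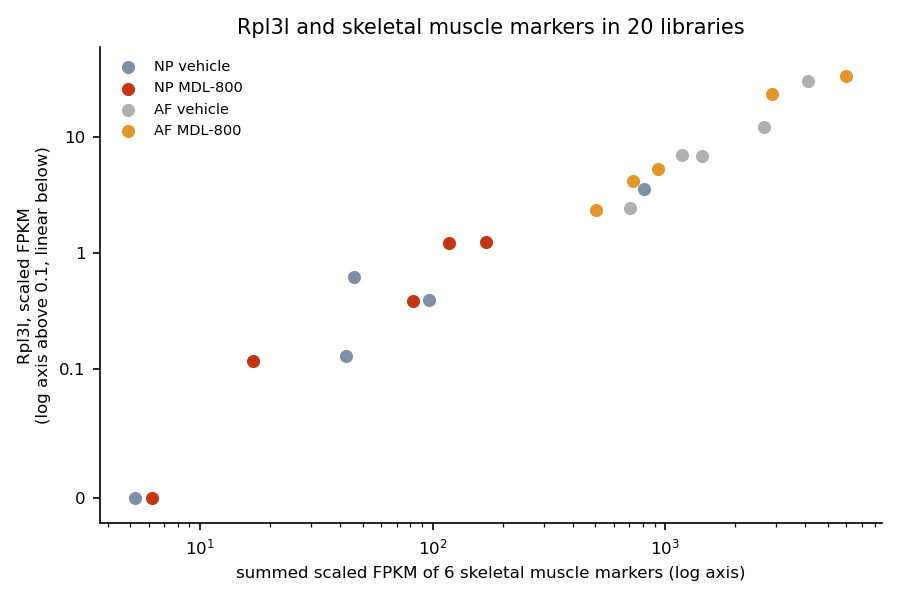
Rpl3l against the summed level of 6 skeletal muscle markers in each library, both in scaled FPKM on log axes (linear below 0.1 for Rpl3l, to show 0); each point is a library, coloured by group. AF MDL-800 29 (33.9) and AF vehicle 12 (30.5) are highest in Rpl3l and have marker sums of 6013 and 4113, and NP vehicle 3 stands among the AF libraries.

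Other genes of the translation machinery, taken as lists, gave no call between MDL-800 and vehicle in either tissue. These lists held 79 tested genes of the mitochondrial ribosome, 33 of ribosome assembly, 20 translation factors and other TOP mRNAs, 15 of mTORC1 and its regulators and 4 subunit genes outside the rule. In the NP their median differences with MDL-800 were -0.04, -0.10, -0.12, 0.02 and -0.18, against -0.03 over all genes. Mrpl14 of the mitochondrial ribosome had a difference of 0.96 ± 0.2 (limma adjusted p = 0.0743).

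Between the tissues, genes of these lists were called in both directions. With vehicle, 27 of the 79 mitochondrial ribosomal protein genes were called lower and 3 higher (41 and 3 with MDL-800), with medians of -0.28 and -0.31. Of the assembly genes 13 were called lower and 3 higher (17 and 2), among them Fbl, the methyltransferase of box C/D particles (-1.13 ± 0.235 with vehicle, limma adjusted p = 0.00197). Nop56, a core protein of the same particles, was lower too (-0.81, adjusted p = 0.000462), while Rrs1, which helps load 5S RNA, was higher by 0.57 (adjusted p = 0.00126). Of the translation factors 2 were called lower and 3 higher with vehicle (8 and 2 with MDL-800). The poly(A)-binding protein Pabpc1 was lower (-1.04 ± 0.15, adjusted p = 0.000191) and the helicase Eif4a2 higher (0.89 ± 0.245, adjusted p = 0.00946).

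In the mTORC1 list 3 were lower and 2 higher with vehicle (3 and 5). Myc, a driver of ribosome production, was lower (-1.01 ± 0.177, limma adjusted p = 0.000636) and the mTORC1 inhibitor Tsc1 higher (0.61 ± 0.132, adjusted p = 0.00263). Outside the rule, Fau, whose product is a 40S protein fused to a ubiquitin-like protein, was higher with vehicle (0.83 ± 0.199, adjusted p = 0.00458). Rack1, a scaffold on the 40S head, and Rpl36al were lower with MDL-800 (-0.47 and -0.32, adjusted p = 0.016 and 0.0153). The shares called among all genes given above, 33.9% lower and 21.8% higher with vehicle and 37.2% and 25.6% with MDL-800, are the background for these counts. The split of all genes rests on the scaling: with vehicle 6474 were called higher and 3925 lower after quantile normalization, and 4976 and 4655 with upper-quartile scaling, against 3577 and 5550 here.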

How the data were processed

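Total RNA was made into stranded libraries after ribosomal RNA depletion, from 50 ng and with 14 cycles of PCR, per the labels' protocols. Reads were aligned with STAR 2.7.11b to mm10, per the submitters' processing notes. The counter, its annotation and its treatment of reads that match several loci are not given in the sources used here. The authors deposited 1 table of FPKM values for 51789 genes, and no table of counts was used here. Each library was scaled by its median ratio to the others over 11308 genes that no library lists below 1 FPKM. The 16383 genes that reached 1 FPKM in 5 or more libraries were tested with limma 3.58.1 (R 4.3.3, trended eBayes) on log2(scaled FPKM + 1), which understates changes of low genes. Each fit held only the 2 groups compared, except that the difference of effects used all 4, and p-values were Benjamini-Hochberg adjusted over all tested genes with a threshold of 0.05. Intervals are at 95%. The exact permutation test was two-sided. Depth was estimated from single-exon genes, where 79.9% to 85.0% of low values fell on whole-read steps within 0.15 reads, too few for a count test. Copies were found with BLAST 2.17.0 against GENCODE M21 transcripts (GRCm38), and their FPKM were added as deposited, each per its own length. GC content came from the same annotation. The fits were tested on simulated data. Python 3.11.15 and scipy 1.17.1 were used.

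The members, lists and tests were chosen with earlier results of these data known. Named members were the stalk genes, Rpsa, Rps6, Rpl5, Rpl11, Rps19, Rpl38, Rps29, Rps13, Rpl13a, the pairs with a paralog, the 3 most abundant, and in each comparison up to 4 called members per direction whose groups do not overlap or, with none called, the 2 with the smallest p per direction. Rpl36, Rpl28, Rps12, Rps12l1, Rpl27, Rpl12 and the other called members were added after their values were seen. Alternatives covered the pseudocount, filter, scaling, samples in the fit, trend, GC and length, copies and leaving out libraries. Leaving out the 4 libraries with a low GC slope, adding copies, and blocking by the second number in the column names were chosen after seeing the data. Results for some genes that entered the fits and counts are not reported here.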

Additional observations from a re-analysis of the deposited data

Results flagged for a closer look

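In 5 of 148 groups of 5 libraries checked, 1 library stood far from the other 4, where chance would give 7.4. Rps12 was 153.1 in AF vehicle 12, against 16.96 to 27.45 in the others of that group. Rpl38 was 957.4 in AF vehicle 9, against 614.5 to 661.2, and Rps19 was 680.0 in the same library, against 499.3 to 520.7. AF vehicle 9 also had the highest sum of NP markers among AF libraries, 15090. The tested members were high there in general. Their median log2 deviation from the mean of the 20 libraries was 0.293, the highest of that group. The part of either in the values of Rpl38 and Rps19 was not tested. Rpl27 was 12.55 in NP MDL-800 19, against 9.067 to 9.984. Rpl3l was 3.571 in NP vehicle 3, against 0 to 0.6189, and that library also had the highest skeletal muscle marker sum of its group, 811.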

How the results depend on the processing

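The 2 calls in the NP became 0 with no filter on low values and with all 4 groups in 1 fit, and 1 with FPKM as deposited and with no trend. Without NP vehicle 1 and 2, the NP libraries of low GC slope, both were lost and 1 other member, Rps4l, was called. There were 3 calls with a filter at 5 FPKM, quantile normalization, libraries scaled to the same sum, the length trend removed and near-identical copies summed, and 2 in the remaining alternatives. Calls over all genes, 41 in the fit used above, moved too. They were 7 with no filter, 4 with all 4 groups, 18 as deposited, 18 with no trend and 11 without the low GC slope libraries. With the filter at 5 FPKM they were 81, with quantile normalization 70, at the same sum 31, with the length trend removed 94 and with copies 43. Leaving out 1 library gave 0 to 6 member calls, 0 without NP vehicle 3 and without NP MDL-800 22, 3 without NP vehicle 5, 6 without NP vehicle 6 and 1 without any 1 of the other 6. Over all genes the calls were 2 without NP vehicle 3 and without NP MDL-800 22, and 20 without NP vehicle 5. Without NP vehicle 6 there were 189, and without any 1 of the other 6 there were 4 to 25. Beside these fits, Rplp2 was called in 14 of 17 alternatives and Rpl29 in 10 of 17. Between the tissues with MDL-800, 15 calls became 25 with quantile normalization, 31 with upper-quartile scaling, 24 with the GC trend removed, 24 with GC and length trends removed and 5 with the block described below, and 13 to 22 without 1 library. Over all genes 10290 calls became, in the same order, 11207, 10654, 10592, 10649 and 7858, and 9572 to 10283 without 1 library. Between the tissues with vehicle the member calls were 4 to 13 without 1 library. In the AF and for the difference of effects they stayed 0 to 0. Without 1 library the median member difference ran from -0.08 to 0.04 in the NP, 0.01 to 0.17 in the AF, -0.03 to 0.15 between tissues with vehicle, -0.05 to 0.09 with MDL-800 and -0.14 to 0.01 for the difference of effects. Over the other alternatives it ran from -0.11 to 0.07 in the NP, 0.03 to 0.15 in the AF, -0.01 to 0.25 between tissues with vehicle, -0.07 to 0.20 with MDL-800 and -0.20 to -0.01 for the difference of effects. Rpl10 reversed between the tissues with vehicle when summed with its named pseudogenes (-0.03044) or with all near-identical copies (-0.02956), and with MDL-800 likewise (-0.06439 and -0.06414). Causes were not tested.

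Between MDL-800 and vehicle no paired analysis was possible because the labels' replicate numbers are never shared between groups. The column names carry a second number whose meaning no label states, shared by 5 vehicle and 3 MDL-800 pairs of NP and AF libraries. Deviations of these pairs correlated at -0.178 to 0.285, and 2 of 8 libraries correlated best with their own number. With that number as a replicate block, 9 members were called with vehicle and 5 with MDL-800, from 3 pairs. Of all genes 8783 and 7858 were called in these 2 fits. With 5 libraries a group and no counts, levels of Rpl3l, Rpl27 and other low members are the least precise.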
